A study of Homo sapiens with 3 samples.

Results

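The comparison described here sets an HT1080 line that carries a RECK expression vector against its mock-transfected control. HT1080 is an established human fibrosarcoma line. Total RNA from each line was hybridised to 1 Affymetrix expression array, so each line is represented by 1 array and no value below has a replicate, an SD or a test. The control line (Zeo) was mock-transfected and the RECK line received pZeoSV2(+)-RECK. All lines were grown in DMEM with 10% FCS and 50 µg/mL Zeocin, the antibiotic used to select transfected cells. Clonal lines and pools of transfectants are not told apart by the labels, and the vector content of the mock-transfected cells is not given in the sources used here. Differences between the lines that are unrelated to the transfected gene therefore cannot be told apart from its effect. An additional line of the series, RECK/4NQ, carries a RECK form with 4 N-glycosylation asparagines changed to glutamine. Its signals are given beside those of the main comparison as a description only, because any ratio of it to Zeo would share the Zeo array. Where 3 signals of a gene follow each other, they are those of Zeo, RECK and RECK/4NQ in that order.

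Of 54675 probe sets on each array, 41091 carried exactly 1 gene symbol and were the members of the comparison. They represented 19775 genes. A gene was read from its brightest probe set by the mean signal over the Zeo and RECK arrays. Signals are MAS5 intensities on a linear scale, with no fixed unit. Signals below the 40th percentile of the values of all arrays were raised to it, a floor of 12.2, before the log2 ratio of RECK over Zeo was taken. Both arrays were at or above the floor for 13335 genes, 1 array for 3125 and neither for 3315. A difference was counted where both arrays were at or above the floor and differed at least 2-fold, or where a signal under the floor stood against 24.5 or more, 2 times the floor. In the latter case the ratio is a lower bound and is written as "at least".

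RECK is a glycoprotein tethered to the outer face of the plasma membrane by a GPI anchor, and is known as an inhibitor of several metalloproteinases that degrade extracellular matrix. The gelatinases MMP2 and MMP9 cleave denatured collagen and basement membrane components, MMP14 is a membrane-anchored collagenase that activates pro-MMP2, and the TIMP proteins are secreted inhibitors of the same enzymes. RECK is also known as a partner of ADGRA2 in Wnt7 signalling and as a regulator of ADAM10, which sheds Notch ligands. Fibrosarcoma cells such as HT1080 secrete gelatinases and have served for studies of matrix degradation and invasion.

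The distribution of differences was as follows. At least 2-fold higher signals in RECK were found for 829 genes, which is 4.19% of all genes and 5.45% of the 15203 genes whose mean signal reached the floor. At least 2-fold lower signals were found for 1379 genes, 6.97% of all genes and 9.07% of those 15203. Over probe sets rather than genes, the shares were 3.65% higher and 6.33% lower. Bounds made up 386 of the higher and 563 of the lower genes. Among genes measured on both arrays, 65 were at least 4-fold higher, 53 at least 4-fold lower, 12 at least 8-fold higher and 6 at least 8-fold lower. The median log2 ratio of the 15203 genes was -0.20, and the sum of all signals was 12516990 on the Zeo array and 11372165 on the RECK array. After each array was divided by its median, which moves this median ratio by 0.20, 1117 genes were higher and 932 lower, so the excess of lower genes depends on the scaling. List medians below are given relative to the median of all genes, and single genes as deposited.

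The scatter of the ratios narrowed with the level of a gene. For 8765 genes with a mean signal from the floor to 100, the robust spread of the log2 ratios was 0.74, and 7.99% were higher and 13.3% lower. For 4878 genes with means from 100 to 1000 the spread was 0.42, and 2.30% were higher and 3.73% lower. For 1560 genes at 1000 or more it was 0.31, with 17 genes higher and 28 lower. Probe sets of 1 gene share the RNA and the array, so their likeness tells only about the measurement. Where the dimmer of the 2 brightest probe sets of a gene lay below 100, their log2 ratios differed by a median of 0.49. From 100 to 1000 the median difference was 0.23, and above that 0.093. Of genes that were higher by the brightest probe set, the next one was also past 2-fold in 16 of 116 in the lowest level, 20 of 31 in the middle one and 2 of 2 in the highest. Corresponding numbers for lower genes were 33 of 244, 22 of 45 and 3 of 4. Across all genes of these levels the next probe set was past 2-fold higher in 4.32%, 2.20% and 0.671%, and past 2-fold lower in 7.75%, 3.49% and 1.34%. Ratios of bright genes with several probe sets were therefore measured with less scatter than those of dim genes.

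**Figure D1:**
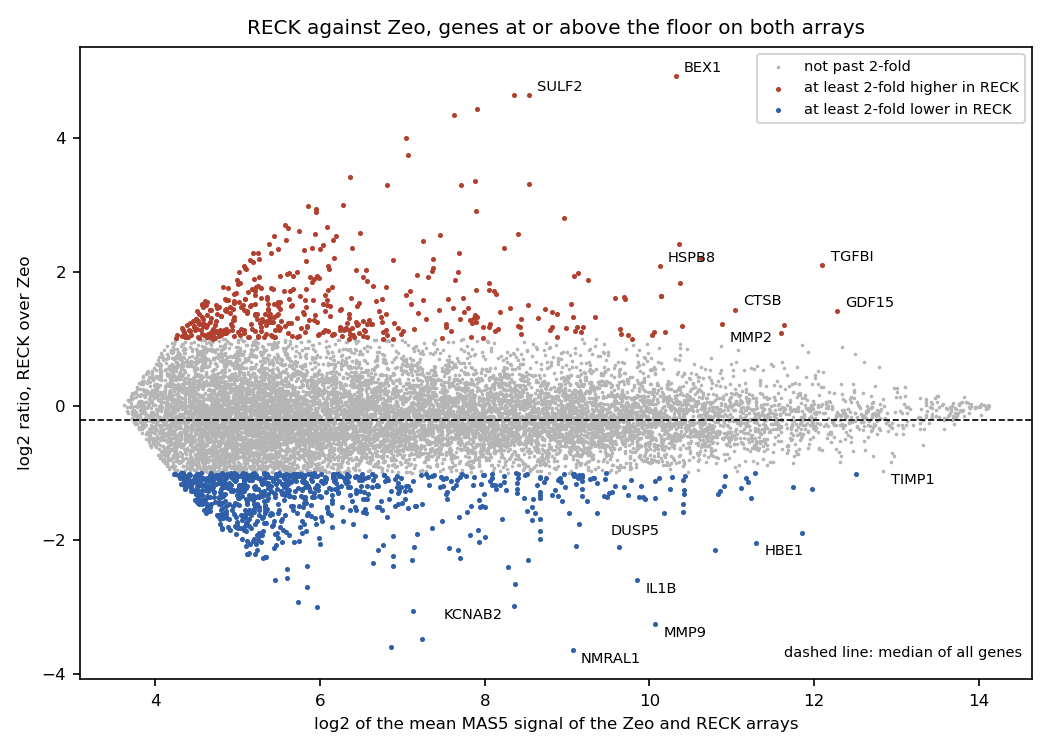
Log2 ratio of RECK over Zeo (vertical) against the log2 of the mean MAS5 signal of both arrays (horizontal) for 13335 genes at or above the floor on both; coloured points are at least 2-fold apart and the dashed line marks the median of all genes at -0.20. The cloud narrows with level, from a spread of 0.74 below a mean signal of 100 to 0.31 at 1000 and above, and BEX1, MMP9, IL1B, NMRAL1 and TGFBI lie far outside it.

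The identity of the cells was read from marker lists. Of 15 mesenchymal and fibroblast markers, 13 were at or above the floor in Zeo and 12 in RECK, and their summed signal was 17301 in Zeo and 17987 in RECK. Epithelial markers were at or above the floor for 6 of 15 in each line, with sums of 483 and 889. KRT7, a keratin of simple epithelia, held most of the latter sum, at 247 in Zeo and 655 in RECK. For leukocyte markers 11 of 13 reached the floor in Zeo and 8 in RECK, with sums of 692 and 911. The largest of these was LCP1, an actin-bundling protein that many tumour lines express, at 217 and 357. Of 11 endothelial markers 3 reached the floor in Zeo and 7 in RECK, with larger sums of 2808 and 2154. Sums for neuron and glia markers were 681 in Zeo and 528 in RECK, and for skeletal muscle markers 314 and 275. Melanocyte markers summed to 165 and 149, and hepatocyte markers to 304 and 281. Hybridisation control transcripts added to the samples had a mean log2 ratio of 0.38 ± 0.18 (SD over 9 probe sets) and labelling controls of -0.29 ± 0.14 (SD over 12 probe sets). Their part in the ratios of genes was not tested.

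RECK itself was not past 2-fold by its brightest probe set. The brightest of its 5 probe sets gave 264 in Zeo against 387 in RECK and 442 in RECK/4NQ, a 1.47-fold ratio of RECK to Zeo. The other 4 were dim and differed in direction. One had 26.2 in Zeo against 2.08 in RECK, below the floor, and so counts as at least 2-fold lower, while another had 21.7 in Zeo and a log2 ratio of -0.047. The remaining ones read 11.2 and 5.64, below the floor, in Zeo and 18.2 and 17.9 in RECK. Where these probe sets lie relative to the cDNA in the vector is not given in the sources used here, so they do not check the transfection.

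MMP9, a gelatinase, had the lowest ratio of the metalloproteinases at or above the floor on both arrays. It read 1947 in Zeo against 203 in RECK and 2306 in RECK/4NQ, 9.60-fold lower in RECK than in Zeo. Its gelatinase relative MMP2 had 1307, 2429 and 1692 on these arrays, 1.86-fold higher and not past 2-fold as deposited. Relative to the median of all genes the log2 ratio of MMP2 was 1.10, which is past 2-fold. MMP14 had 1248 in Zeo against 895 in RECK and 1199 in RECK/4NQ, and its other 3 probe sets also read lower in RECK, with log2 ratios between -0.88 and -0.39. MMP9 and MMP2, which act on similar substrates, thus had ratios on opposite sides of 1.

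The TIMP genes also had ratios on both sides of 1. TIMP3, a TIMP that binds to the extracellular matrix, had log2 ratios from 0.93 to 4.01 over its 4 probe sets. The brightest read 15.4 in Zeo against 248 in RECK and 82.2 in RECK/4NQ, 16.1-fold higher in RECK. TIMP1 had 9692, 4921 and 9116, which is 1.97-fold lower and just inside the threshold. TIMP2, an inhibitor that also takes part in MMP2 activation, had 2561 in Zeo against 2805 in RECK and 1912 in RECK/4NQ.

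Of 20 listed metalloproteinases, MMP15 and MMP19 were the 2 at least 2-fold higher, MMP9, MMP17 and MMP25 the 3 lower, and 15 were not past 2-fold. The shares of all genes were 4.19% higher and 6.97% lower. MMP15, a membrane-type enzyme, was dim in Zeo at 12.7 and read 83.0 in RECK and 30.0 in RECK/4NQ. MMP25, a GPI-anchored enzyme, had 75.6, 20.5 and 77.8. MMP17, also GPI-anchored, was at 76.0 in Zeo and below the floor in RECK, at least 6.21-fold lower, with 14.4 in RECK/4NQ. The relative median of the list was 0.33 and ranged from 0.013 to 0.33 over the settings tried.

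ADAMTS proteases are secreted relatives of the ADAM sheddases that process procollagens and proteoglycans. Of 15 listed with a probe set, 4 were higher and 0 lower, against 4.19% and 6.97% of all genes. ADAMTS2, which removes the amino-terminal propeptide of procollagen, read 20.6 in Zeo against 203 in RECK and 28.3 in RECK/4NQ. Its next probe set read 2.68 and 113 in Zeo and RECK, and the dimmest 42.6 and 42.1. ADAMTS15 had 17.7, 105 and 17.5 on the 3 arrays, and ADAMTSL1, an ADAMTS-like protein without the protease domain, had 21.5, 125 and 2.52. All of these were dim in Zeo, and RECK/4NQ stayed near the Zeo level or below the floor. The list's relative median was 0.41, from 0.20 to 1.28 over the settings.

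Among other proteases and inhibitors, the lysosomal cathepsin CTSB was higher by every probe set. The brightest of 5 had 1134 in Zeo against 3080 in RECK and 937 in RECK/4NQ, and log2 ratios ran from 0.98 to 1.69. Of 12 cathepsins it was the 1 higher, 2 were lower and 9 were not past 2-fold, beside 4.19% and 6.97% of all genes. The lowest log2 ratio of that list was -1.95 and the relative median 0.027. SPINK1, a trypsin inhibitor, had 6.52, 128 and 55.5. SERPINF1, a secreted serpin without known inhibitory activity, read 92.5 in Zeo, was below the floor in RECK and had 17.5 in RECK/4NQ. Of 25 secreted inhibitors, 4 were higher, 3 lower and 18 not past 2-fold, beside 4.19% higher and 6.97% lower of all genes. Of 8 plasminogen system genes none passed 2-fold.

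Genes of the cell surface heparan sulfate system held the second highest ratio of any gene at or above the floor on both arrays. SULF2, an extracellular sulfatase that removes 6-O-sulfate groups from heparan sulfate, read 28.4 in Zeo against 714 in RECK and 20.4 in RECK/4NQ. Its other probe set had 43.0, 246 and 12.8. Of the core proteins that carry these chains, 3 were past 2-fold higher. GPC1, a GPI-anchored glypican, had 674 in Zeo against 1453 in RECK and 416 in RECK/4NQ. GPC4 read 20.7, 110 and 11.2, and the syndecan SDC3 44.8, 156 and 82.0. In a list of 11 syndecans, glypicans and related proteoglycans, these were the 3 higher members, 8 were not past 2-fold and none was lower. Among all genes 4.19% were higher and 6.97% lower. The relative median of the list was 0.69, with a range of 0.12 to 1.25 over the settings. The sulfotransferase HS3ST1 went the other way, with 52.8 in Zeo and a signal below the floor in RECK, as in RECK/4NQ. CSPG4, a membrane chondroitin sulfate proteoglycan, had 99.8 in Zeo against 15.3 in RECK and 58.0 in RECK/4NQ.

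Matrix genes past 2-fold lay in both directions. TGFBI, a secreted matrix protein induced by TGF-beta, had 1649 in Zeo against 7127 in RECK and 2620 in RECK/4NQ, 4.32-fold higher in RECK. THBS1, thrombospondin 1, read 518, 1089 and 488 by its brightest probe set, and 2 others with signals above 280 in Zeo had log2 ratios of 0.61 and 0.74, while a dim one read 37.0 and 14.6 in Zeo and RECK. Tenascin C, TNC, had 436, 870 and 82.1 and stayed just under 2-fold at a log2 ratio of 1.00. COL5A1, a chain of collagen V, was higher by all 3 of its probe sets, with 201 in Zeo against 493 in RECK and 92.0 in RECK/4NQ for the brightest. PCOLCE, which enhances removal of the carboxyl propeptide of procollagen, had 58.9, 271 and 55.4. On the other side stood LOX, the lysyl oxidase that crosslinks collagen and elastin, with 453 in Zeo against 141 in RECK and 170 in RECK/4NQ, lower by all 3 probe sets. LAMA5, a laminin chain of basement membranes, had 407, 105 and 191.

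Collagens as a list had 3 of 21 members higher and 1 lower, beside 4.19% and 6.97% of all genes, and a relative median of 0.056. Basement membrane components had 2 of 18 higher, 2 lower and a relative median of 0.14. The 18 matricellular proteins, matrix proteins that signal rather than build fibres, had 2 higher, 2 lower and a relative median of 0.32. Collagen modifying enzymes had a relative median of 0.34, with 16 of the 19 at or above the floor lying above the median of all genes although PCOLCE alone of 20 was past 2-fold higher, and LOX and PCOLCE2 were lower.

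Of 24 integrin chains, receptors for matrix proteins, 4 were lower and 1 higher, beside 6.97% and 4.19% of all genes. ITGA6, the laminin-binding alpha 6 chain, had 357 in Zeo against 93.8 in RECK and 175 in RECK/4NQ, and its other probe set read 134, 45.6 and 52.5. The collagen-binding chains ITGA10 and ITGA11 were at 265 and 171 in Zeo and at 109 and 73.8 in RECK. In RECK/4NQ they read 436 and 89.7. Of 23 adhesion molecules of the immunoglobulin type, 4 were higher, 0 lower and 19 not past 2-fold. ICAM2 had 116, 415 and 199 on the Zeo, RECK and RECK/4NQ arrays, and CADM1 160, 422 and 171, each with further probe sets past 2-fold in the same direction. JUP, plakoglobin, which links cadherins to the cytoskeleton, had 105 in Zeo against 2.98 in RECK and 27.9 in RECK/4NQ, at least 8.56-fold lower. The tetraspanin CD9 read 102 in Zeo and 5.10 in RECK, at least 8.32-fold lower, with 47.5 in RECK/4NQ. Of 13 claudins and tight junction proteins 3 were lower and 0 higher, among them TJP1, the scaffold ZO-1, with 127, 60.3 and 92.3. The relative median of that list was -0.45, from -0.45 to -0.078 over the settings. CLDN11, another of the lower members, had 66.9 in Zeo against 20.4 in RECK, and without shared probe sets its log2 ratio was 0.085 and its call ended.

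Of 20 contractile genes of smooth muscle type, TAGLN, MYL9 and ACTA2 were the 3 past 2-fold higher, 0 were lower and 17 were not past 2-fold, beside 4.19% and 6.97% of all genes. In this list 16 of the 19 at or above the floor lay above the median of all genes, and the relative median was 0.50, with 0.36 and 0.57 as its lowest and highest values over the settings. TAGLN, the actin-binding protein transgelin, read 111 in Zeo against 367 in RECK and 10.9 in RECK/4NQ, and its next probe set 47.6, 316 and 28.7. The dimmest was at 42.2 and 44.5 in Zeo and RECK. MYL9, a myosin regulatory light chain, had 1125 in Zeo against 2636 in RECK and 500.4 in RECK/4NQ. Without shared probe sets the log2 ratios of TAGLN and MYL9 were 0.077 and 0.36, which ends both calls. ACTA2, smooth muscle actin, had 590.3, 1184 and 534, while its other probe sets were below 30 in Zeo and below the floor in RECK, and averaging all of them turned its log2 ratio to -0.087. MYLK, the kinase of the light chain, read 972, 1574 and 1456. MYH10, which encodes a nonmuscle myosin heavy chain, had 278 in Zeo against 24.8 in RECK and 253 in RECK/4NQ, 11.2-fold lower in RECK.

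**Figure D2:**
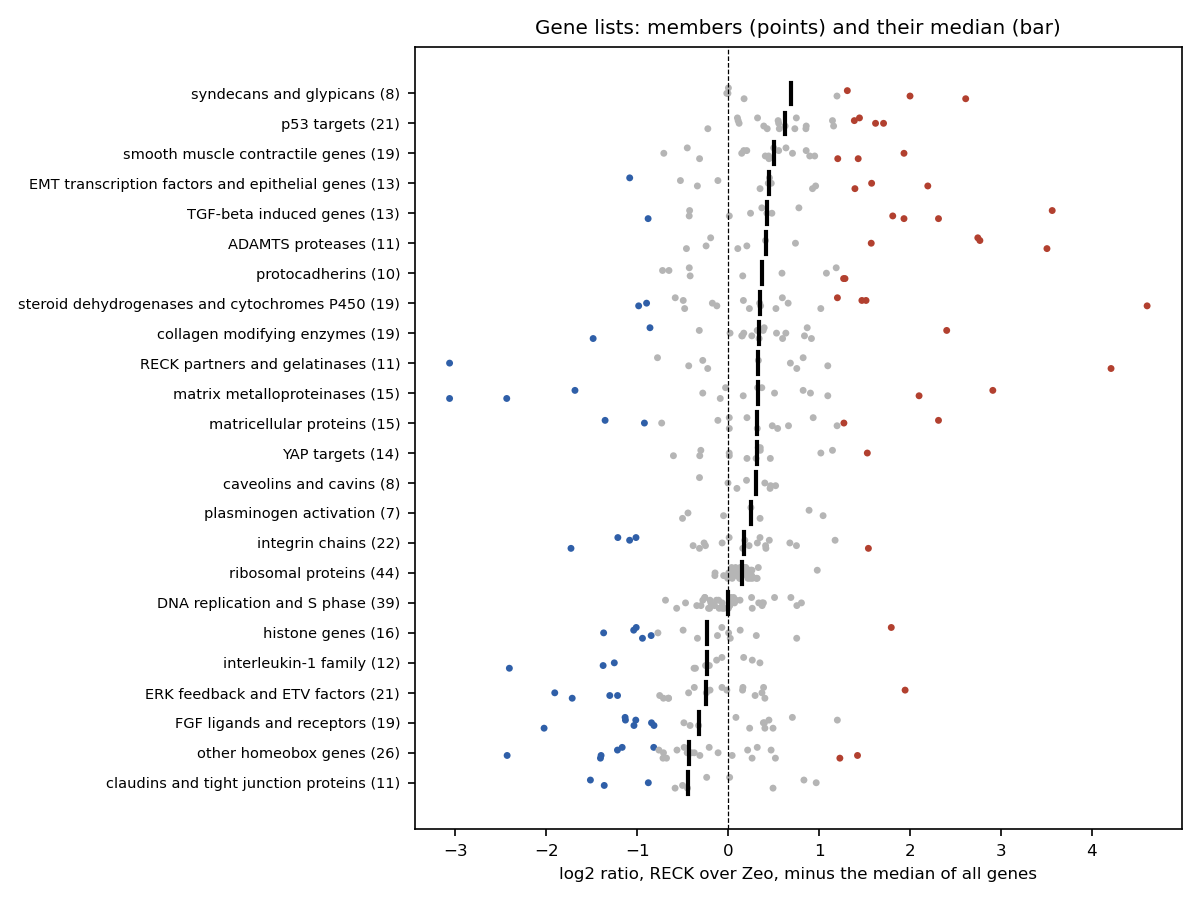
Gene lists (rows, with the number of members whose mean signal reached the floor) against the log2 ratio of RECK over Zeo minus the median of all genes; points are genes, coloured where at least 2-fold apart, and bars are list medians. The p53 targets (relative median 0.63) and smooth muscle contractile genes (0.50) lie mostly right of zero, the claudins (-0.45) and other homeobox genes (-0.43) mostly left, and ribosomal proteins (0.15) form a narrow column.

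Of 22 genes known as direct targets of p53, the stress-activated transcription factor, 4 were higher, 0 lower and 18 not past 2-fold, beside 4.19% and 6.97% of all genes. In this list 20 of the 21 at or above the floor lay above the median of all genes. The relative median was 0.63 and kept between 0.45 and 0.72 over the settings. GDF15, a secreted stress cytokine, had 2692 in Zeo against 7199 in RECK and 2148 in RECK/4NQ by a probe set that can match several transcripts. Another read 30.0 and 27.7 in Zeo and RECK, and the last was below the floor on both arrays. The call of GDF15 ended with probe sets averaged, at a log2 ratio of 0.44, and without shared ones, where it was 0. Polo-like kinase PLK2 read 113, 256 and 75.2. DDB2, a DNA damage recognition protein, had 1651, 2603 and 1543, AEN, an apoptosis-enhancing nuclease, 613, 964 and 401, and GADD45A 292, 563 and 189. These last 3 did not reach 2-fold. For each of the 5 the RECK/4NQ signal was below the Zeo signal. RRM2B, which had the highest ratio of the list, went the other way, with 12.7 in Zeo against 36.1 in RECK and 20.6 in RECK/4NQ. PLK3 read 136, 322 and 124, and its call ended with probe sets averaged, at a log2 ratio of 0.61.

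TGF-beta induced genes had 4 of 14 members higher and 1 lower, beside 4.19% and 6.97% of all genes. The relative median was 0.43, within 0.28 to 0.43 over the settings. The list shares TGFBI and TAGLN with the paragraphs above. PMEPA1, a feedback inhibitor of the pathway, had 378 in Zeo against 1151 in RECK and 888 in RECK/4NQ, and all 3 probe sets had log2 ratios between 1.43 and 1.61. BAMBI, a decoy receptor, read 41.7, 428 and 66.7. The corepressor TGIF1 was lower, with 460 in Zeo against 217 in RECK and 460 in RECK/4NQ. The 27 ligands, receptors and SMAD proteins of the pathway had 2 higher, 2 lower and a relative median of -0.20.

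Transcription factors of the epithelial-mesenchymal transition and their epithelial counterparts had 3 of 16 higher and 1 lower, beside 4.19% and 6.97% of all genes. The list had a relative median of 0.46. FOXC2, a forkhead factor of mesenchyme, had 226 in Zeo against 900 in RECK and 227 in RECK/4NQ, and its other probe set read 5.15 and 59.5 in Zeo and RECK. OVOL1, an epithelial factor, read 23.3, 60.6 and 23.1, but 21.2 and 14.6 in Zeo and RECK by its other probe set. PRRX1, a mesenchymal one, was below the floor in Zeo, at 28.0 in RECK and 24.9 in RECK/4NQ. GRHL1, another epithelial factor, was at 29.8 in Zeo and below the floor in RECK and RECK/4NQ. Members of either kind were thus among the genes past 2-fold, and all but FOXC2 were dim.

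Homeobox genes outside the HOX clusters had 6 of 31 members lower and 2 higher, beside 6.97% and 4.19% of all genes. The list's relative median was -0.43, between -0.47 and -0.21 over the settings. MSX1, a homeobox repressor of limb and craniofacial mesenchyme, had 991 in Zeo against 326 in RECK and 584 in RECK/4NQ, and its other probe set read 121, 48.6 and 113. Its relative MSX2 went the opposite way, with 59.4, 138.5 and 86.5. IRX2 read 122 in Zeo against 45.5 in RECK and 11.1 in RECK/4NQ, MEIS3 74.4, 28.8 and 47.5, and PBX3 60.4, 19.9 and 46.1. MNX1, a motor neuron and pancreas homeobox gene, had 75.8 in Zeo, and 1.57 and 5.59, below the floor, in RECK and RECK/4NQ. Of 26 HOX genes 2 were higher and 3 lower. HOXB2 had 1953, 786 and 1118. HOXD10 read 12.7 in Zeo and 74.1 in RECK, and its neighbour HOXD11 5.02 and 71.0, while both were below the floor in RECK/4NQ.

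In the interleukin-1 family 3 of 18 members were lower and 0 higher, beside 6.97% and 4.19% of all genes, with a relative median of -0.23 that ranged from -0.36 to -0.076 over the settings. IL1B, an inflammatory cytokine, had 1583 in Zeo against 260 in RECK and 2343 in RECK/4NQ, and its other probe set read 1238, 342 and 1891. SIGIRR, an inhibitory receptor of the family, had 545 in Zeo against 183 in RECK and 350 in RECK/4NQ, and the other probe set 227, 28.1 and 142. MYD88, the adaptor of these receptors, had 104, 37.9 and 91.4. Among 23 chemokines and receptors 3 were higher and 4 lower. The neutrophil chemokines CXCL8 and CXCL3 were at 39.5 and 73.4 in Zeo and below the floor in RECK, with 22.1 and 39.8 in RECK/4NQ. CCL5, a chemokine for T cells and monocytes, was also lower, at 69.6 in Zeo against 18.5 in RECK and 64.2 in RECK/4NQ. CCL2, a monocyte chemokine, was the reverse, with 3.42 in Zeo against 94.6 in RECK and 5.32 in RECK/4NQ. CHI3L1, a secreted chitinase-like glycoprotein, had 199, 37.7 and 228, 5.27-fold lower in RECK.

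Of 22 feedback inhibitors and targets of ERK, a kinase of growth factor signalling, 4 were lower, 1 higher and 17 not past 2-fold, beside 6.97% and 4.19% of all genes. DUSP5, a nuclear phosphatase of ERK, had 1291 in Zeo against 299.5 in RECK and 565 in RECK/4NQ. SPRY4, an inhibitor of the same pathway, had 381, 134 and 297, and ETV4, a factor downstream of ERK, 711, 266 and 673, with its other probe set at 419, 154 and 435. DUSP9 was the remaining lower gene and DUSP16 the higher one, and the relative median was -0.24. ERRFI1, a feedback inhibitor of the EGF receptor, had 1037, 423 and 746. In the list of 15 EGF ligands and ERBB receptors 1 was higher and 2 lower. The higher one, the ligand TGFA, had 315 in Zeo against 704 in RECK and 427 in RECK/4NQ. NRG1, neuregulin 1, a ligand of the same receptor family, had 66.1, 253 and 96.8, with 4 of its 6 probe sets past 2-fold higher. PREX1, an exchange factor for the GTPase Rac, had 612, 124 and 676, and its other probe set 282, 86.2 and 296.

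Of 20 FGF ligands and receptors 7 were lower and 0 higher, beside 6.97% and 4.19% of all genes. Among genes with a mean signal from the floor to 100, 13.3% were lower. The brightest of the 7 was the receptor FGFR3, with 115 in Zeo against 49.6 in RECK and 35.6 in RECK/4NQ. Its dimmer probe set did not follow, at 17.5 and 18.9 in Zeo and RECK. The relative median of the FGF list, -0.32, changed sign when the floor was raised to the 80th percentile or shared probe sets were left out. In the IGF system IGFBP7, a binding protein, had 1908, 4430 and 1975, while STC1, stanniocalcin, had 623, 194 and 470, and the receptor substrate IRS2 651, 272 and 543. Several probe sets of IGFBP7 and STC1 read the same way. GAS6, the ligand of the TAM receptors, had 2611 in Zeo against 1085 in RECK and 2801 in RECK/4NQ, and its other probe set 1508, 629 and 1594. DKK3, a secreted glycoprotein of the Dickkopf family, had 498, 1105 and 164 by its brightest probe set. Its log2 ratio was 0.39 without shared probe sets and 0.51 with all averaged, which ends the call. NOTCH1 had 702 in Zeo against 302 in RECK and 298 in RECK/4NQ, and the semaphorin SEMA3F, a repulsive guidance cue, 813, 1871 and 1023.

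RECK is both a glycoprotein and GPI-anchored, so the enzymes of these modifications were listed. Of 28 genes of GPI anchor synthesis none was past 2-fold, with a relative median of 0.18. The highest of those with signals past 600 was DPM3, a subunit of dolichol-phosphate-mannose synthase, with 675 in Zeo against 1200 in RECK and 1071 in RECK/4NQ. Of 37 N-glycosylation genes 4 were lower and 0 higher, a share near the background of 6.97% of all genes and 9.07% of those at or above the floor, with a relative median of -0.13. ST6GAL1, which adds terminal sialic acid, had 142, 47.0 and 177. The core fucosyltransferase FUT8 read 80.03, 31.3 and 59.3, but 46.9 and 40.6 in Zeo and RECK by its other probe set. ALG5, a glucosyltransferase of the lipid-linked precursor, had 490.3, 242 and 721.

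Few genes of basic cell functions passed 2-fold. Of 39 DNA replication genes and 44 ribosomal proteins none was past 2-fold, with relative medians of 0.0036 and 0.15, and 40 of the 44 ribosomal proteins lay above the median of all genes. Of 38 mitosis genes TOP2A, a topoisomerase, was the 1 lower, with 164 in Zeo against 76.9 in RECK and 75.6 in RECK/4NQ. None of 27 proteasome subunits and 1 of 45 listed respiratory chain subunits was past 2-fold. ND6, a further respiratory chain subunit that this list does not hold, was lower and is described below. Of all 98 lists, which hold 1956 distinct genes, 16 had a relative median of at least 0.25, 5 of at most -0.25, and 77 lay between.

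Beyond the lists, 41 genes with a mean signal at or above the 60th percentile were higher and 67 lower by at least 2 probe sets, each at or above the floor on both arrays, with no other probe set of the gene past 2-fold the other way. Some of these genes still have a probe set that reads lower, such as IFT27 at a log2 ratio of -0.57 and NRG1 at -0.33. SULF2 and TIMP3 had the highest ratios of the former. VCX2, a cancer-testis gene of the X chromosome with near-identical copies that its probe sets may not separate, had 124 in Zeo against 873 in RECK and 267 in RECK/4NQ. FKBP11, a peptidyl-prolyl isomerase of the secretory pathway, had 98.2, 503 and 106, QPRT, an enzyme of NAD synthesis, 65.1, 264 and 63.9, and PRR5, a subunit of the mTORC2 kinase complex, 42.6, 194 and 49.2. The 4 probe sets of MMP24OS, a transcript antisense to MMP24, had log2 ratios from 1.04 to 1.92, with 262 in Zeo against 964 in RECK and 247 in RECK/4NQ for the brightest. For FKBP11, QPRT, PRR5 and MMP24OS the RECK/4NQ signal was nearer to Zeo than to RECK by the brightest probe set. For TSPAN18 and NUTM1 it was nearer to RECK by that probe set, at 25.8, 111 and 86.2, and at 15.9, 60.5 and 59.4. Their other probe sets had RECK/4NQ nearer to Zeo, at 18.1, 52.5 and 21.7, and at 12.4, 30.8 and 10.5.

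The lower genes with at least 2 probe sets were led by NMRAL1, an NADPH-binding protein of the NmrA type, with 994 in Zeo against 79.1 in RECK and 787 in RECK/4NQ. Its other probe set had 818, 60.1 and 561. MTMR1, a myotubularin-type lipid phosphatase, had 251, 30.0 and 261, and 229, 24.8 and 218 by the next probe set. KCNAB2, a regulatory subunit of voltage-gated potassium channels, had 582, 73.1 and 774. The noncoding TMEM132D-AS1 had 2889, 653 and 1215. TMEM163, a zinc transporter, read 175 in Zeo against 41.3 in RECK and 4.53 in RECK/4NQ, and the protease KLK4 85.8, 21.3 and 19.0. For NMRAL1, MTMR1 and KCNAB2 the RECK/4NQ signal was nearer to Zeo than to RECK, and for the 3 genes named after them it was nearer to RECK.

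**Figure D3:**
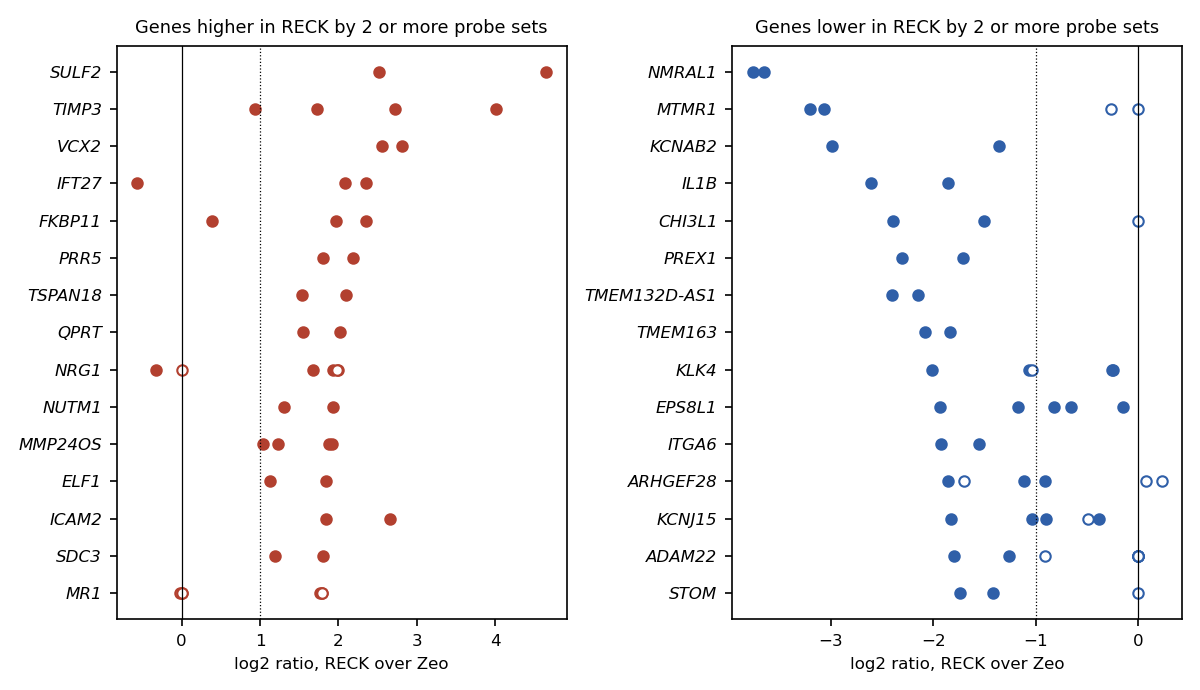
Log2 ratio of RECK over Zeo for every probe set (points) of the 15 highest and 15 lowest genes with at least 2 agreeing probe sets; filled points are at or above the floor on both arrays, open ones are bounds or below it, and the dotted line marks 2-fold. Both probe sets of NMRAL1 lie below -3.6, while genes such as MR1 and NRG1 have further probe sets near 0.

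Genes present on 1 array and below the floor on the other, by every probe set, numbered 51 for RECK and 50 for Zeo where the signal was at least 4 times the floor. HSD17B2, a steroid dehydrogenase that inactivates oestradiol and testosterone, read 9.76 in Zeo against 259 in RECK and 10.6 in RECK/4NQ, at least 21.2-fold higher. FXYD6, a regulator of the sodium pump, had 4.04, 112 and 8.26, and CCDC3, a secreted coiled-coil protein, 10.2, 110 and 8.23. PPP1R14C, an inhibitor of protein phosphatase 1, had 5.38 in Zeo against 112 in RECK and 35.1 in RECK/4NQ. DAAM2, a formin of the Wnt pathway, read 8.53, 105 and 19.9. Signals below the floor have no order, so Zeo and RECK/4NQ cannot be ranked for HSD17B2, FXYD6 and CCDC3.

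In the other direction ARMCX2, an armadillo-repeat gene of the X chromosome, had 251 in Zeo against 12.1 in RECK and 188 in RECK/4NQ, at least 20.5-fold lower. CLCN6, a chloride-proton exchanger of late endosomes, had 106, 9.13 and 65.6. GAGE1, a cancer-testis antigen, read 100.01 in Zeo against 1.54 in RECK and 114 in RECK/4NQ. SMPD3, a neutral sphingomyelinase, had 76.8, 3.67 and 36.1, and OSCAR, an immunoglobulin-type collagen receptor, 79.2, 9.99 and 32.2. In these 5 genes RECK/4NQ was at or above the floor, as was Zeo.

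Among bright genes, those that reached 834.9 (95th percentile of the signals) on the brighter array, 29 were higher and 53 lower. BEX1, a small X-linked protein of the brain-expressed family, had 80.6 in Zeo against 2469 in RECK and 32.0 in RECK/4NQ, 30.6-fold higher and the highest ratio of any gene at or above the floor on both arrays. LINC00520, a noncoding RNA, had 561, 2604 and 399, and HSPB8, a small heat shock protein, 424, 1805 and 267. SBSN, a secreted epidermal protein, was higher on both RECK and RECK/4NQ than on Zeo, with 415 in Zeo against 2219 in RECK and 2543 in RECK/4NQ. Bright and lower were LINC01694, at 891, 209 and 441, and LRRC20, a leucine-rich repeat protein, at 875, 258 and 256. ND6, a respiratory chain subunit encoded by mitochondrial DNA, had 5839 in Zeo against 1566 in RECK and 3401 in RECK/4NQ. BEX1 and ND6 are each read by 1 probe set, and no other probe set of theirs can be set beside these values.

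**Figure D4:**
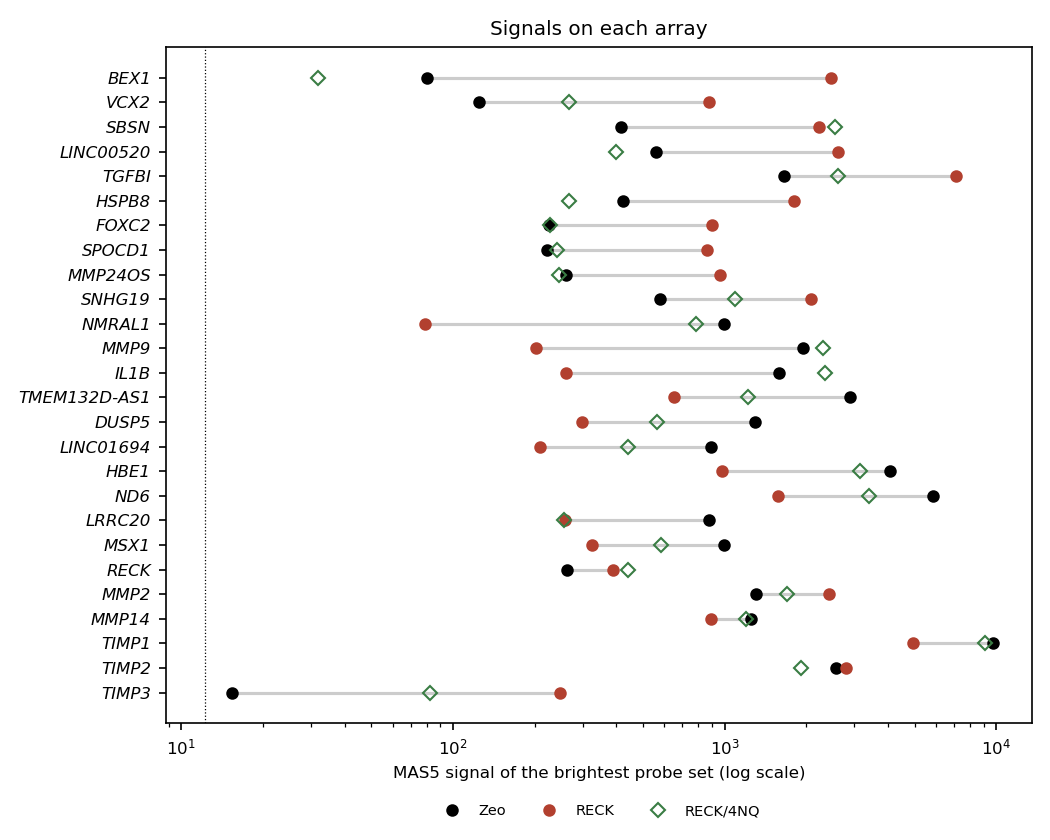
MAS5 signal (log axis) of the brightest probe set on the Zeo (black), RECK (red) and RECK/4NQ (open green) arrays for the bright genes with the largest ratios, RECK, the gelatinases MMP2 and MMP9, MMP14 and the TIMP genes; the dotted line is the floor of 12.2. MMP9, IL1B and NMRAL1 have RECK/4NQ signals close to or above Zeo, whereas for LRRC20 and SBSN they are close to RECK.

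Some genes are read only by probe sets that can match several transcripts, such as MMP9, TIMP3, NMRAL1, LOX and ABL1. Without these probe sets they have no value, so they could not lose the call there. Of 170 named genes past 2-fold, 22 lost the call when probe sets that can match several transcripts were left out, and 54 when all probe sets of a gene were averaged, dim ones included. Besides genes for which this is given above, the calls of DUSP16, GRHL1, GTF3C5, H2AJ, HSPB8, MEIS3, MMP15, MMP25, MSX2, PRRX1, TGIF1 and THBS1 ended without shared probe sets. With averaging the calls of ADAMTSL1, ALG5, CADM1, CXCL8, DUSP16, FGFR3, FUT8, GRHL1, H2AJ, H2BC5, HOXD10, IGFBP7, IRS2, IRX2, ITGA11, KLK4, MEIS3, MMP19, MMP25, MR1, MSX2, MYL9, NOTCH1, NUP214, OVOL1, PRRX1, SEMA3F, SERINC2, ST6GAL1, TGIF1, THBS1, TOP2A and CLDN11 ended.

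Over all genes with a probe set, noncoding ones differed about as often as coding ones. Of 2658 genes that RefSeq types as lncRNA, 130 were higher (4.89%) and 191 lower (7.19%), against 4.06% and 6.91% of 16517 protein-coding genes. Only 1399 of the lncRNA genes had a mean signal at or above the floor, against 13449 of the protein-coding ones. All genes past 2-fold are among these, so within them both shares were larger for lncRNA than for protein-coding genes.

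Genes next to each other on a chromosome sometimes had like ratios. Genes with a mean signal at or above the floor were put in the order of the RefSeq annotation, and the relative median was taken over every run of 15 neighbours. The middle 95% of 14832 overlapping runs lay between -0.43 and 0.43. The highest was at 1.02, from PLCG2 to KCNG4 on chromosome 16, with 6 genes higher and 0 lower, and it holds HSD17B2. These 6 read at most 35.8 in Zeo, while HSBP1, the brightest gene of the run, had a relative log2 ratio of 0.42. On chromosome 1 the run from MATN1 to SPOCD1 was at 1.01, with 7 higher and 1 lower. It holds SDC3 and COL16A1, SERINC2, a serine incorporator, with 403 in Zeo against 1244 in RECK and 316 in RECK/4NQ, and SPOCD1 with 223, 861 and 242. The run from TAGLN to CD3D on chromosome 11 was at 0.92 and holds FXYD6, so these genes of separate functional lists lie in the same neighbourhood. Another on chromosome 16, from RRN3P2 to ASPHD1, was at 0.78 with 6 higher and 0 lower, and holds QPRT. The run from GALK1 to QRICH2 on chromosome 17, also at 0.78, differed in kind, with 1 gene past 2-fold higher, 2 dim ones lower, and 13 of 15 above the median of all genes.

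The lowest runs held bright genes as well. From LOC100272217 to NTNG2 on chromosome 9 the relative median was -0.80, with 7 genes lower and 0 higher. ABL1, a tyrosine kinase, had 2035 in Zeo against 678 in RECK and 1593 in RECK/4NQ, UCK1, a uridine-cytidine kinase, 1348, 525 and 812, and NUP214, a nucleoporin, 577, 262 and 415. Further along chromosome 9, from GTF3C5 to CACFD1, it was -0.68, with 6 lower and 1 higher. GTF3C5, a subunit of a transcription factor of RNA polymerase III, had 1860, 860.2 and 1141. For these 4 genes the RECK/4NQ signal lay between the other lines. On chromosome 18 the run from CHMP1B to MC5R was at -0.71, with 6 lower and 1 higher, including PSMG2, a proteasome assembly chaperone, at 1703, 723 and 1492. The run from OR51E1 to OR51I1 on chromosome 11, at -0.75, held mostly dim olfactory receptor genes and HBE1, embryonic epsilon globin, with 4052 in Zeo against 981 in RECK and 3145 in RECK/4NQ. None of the 10 runs changed sign under the settings tried. Copy number was not measured.

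**Figure D5:**
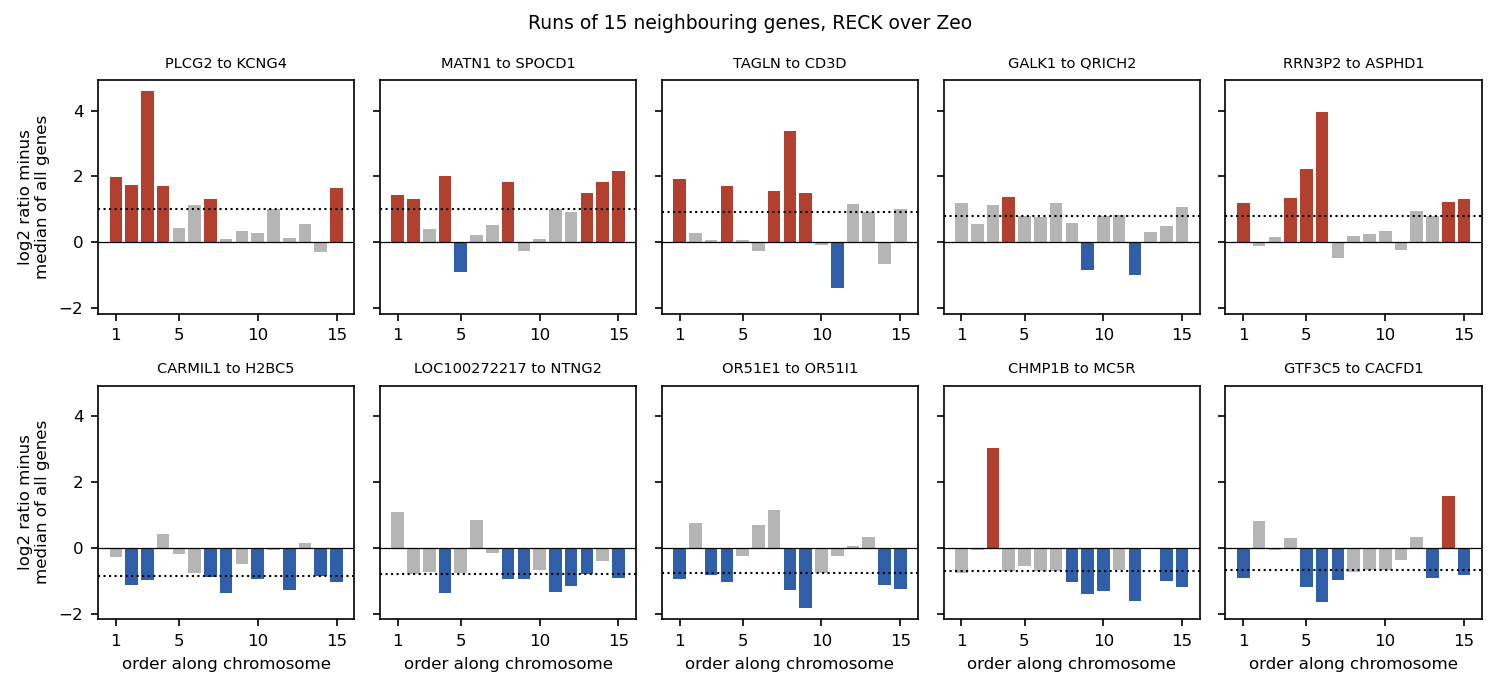
Log2 ratio of RECK over Zeo minus the median of all genes for the 5 highest (top) and 5 lowest (bottom) runs of 15 neighbouring genes, in their order along the chromosome; coloured bars are at least 2-fold apart and dotted lines are run medians. In the run from PLCG2 to KCNG4 14 of 15 bars are above 0, and in the run from CARMIL1 to H2BC5 13 of 15 are below it.

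The lowest run of all, at -0.85, was part of the histone gene cluster of chromosome 6, from CARMIL1 to H2BC5, with 8 genes lower and 0 higher. Over the settings it ranged from -0.96 to -0.19. H2BC5, a histone H2B gene, had 814 in Zeo against 345 in RECK and 601 in RECK/4NQ, and 188, 118 and 158 by its other probe set. H1-2, a linker histone, had 461, 209 and 484. H3C2, a histone H3 gene, was dim, with 29.9 in Zeo against 15.2 in RECK and 33.1 in RECK/4NQ, and stayed just inside 2-fold. H2BC12, outside this run, had 4778, 2063 and 3980. Of 17 listed histone genes 5 were lower and 1 higher, beside 6.97% and 4.19% of all genes, with a relative median of -0.23. The higher one was H2AJ, a histone H2A variant gene on chromosome 12, with 415, 1251 and 217, and 404, 1255 and 135 by its next probe set. Both can match several transcripts, and its remaining probe sets were near or below the floor. Histone genes of a cluster share long stretches of sequence, so their probe sets may not separate them.

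The 250 bases before the start of H2BC5, H1-2 and H3C2 are printed because these neighbours had lower signals in RECK, and those of H2AJ because it had a higher one. They are from RefSeq on GRCh38.p14, at chr6:26157871-26158120 (plus strand) for H2BC5, chr6:26056471-26056720 (minus strand) for H1-2, chr6:26032100-26032349 (minus strand) for H3C2 and chr12:14774155-14774404 (plus strand) for H2AJ. Capitals mark matches to CCAAT and to TATANA on either strand, with ATTGG and TNTATA as their reverse complements, and TATANA matches may overlap each other.
H2BC5: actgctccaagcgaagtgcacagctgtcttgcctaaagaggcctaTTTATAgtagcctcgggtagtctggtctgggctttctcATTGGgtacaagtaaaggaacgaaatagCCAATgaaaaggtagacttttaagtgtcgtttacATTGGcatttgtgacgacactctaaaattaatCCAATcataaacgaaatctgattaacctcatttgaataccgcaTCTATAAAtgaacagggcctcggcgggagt
H1-2: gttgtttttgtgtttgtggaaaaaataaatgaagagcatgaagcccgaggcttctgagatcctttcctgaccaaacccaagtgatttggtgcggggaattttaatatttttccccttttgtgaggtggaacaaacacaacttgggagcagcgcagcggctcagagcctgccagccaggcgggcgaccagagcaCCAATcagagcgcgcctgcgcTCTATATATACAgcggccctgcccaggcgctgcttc
H3C2: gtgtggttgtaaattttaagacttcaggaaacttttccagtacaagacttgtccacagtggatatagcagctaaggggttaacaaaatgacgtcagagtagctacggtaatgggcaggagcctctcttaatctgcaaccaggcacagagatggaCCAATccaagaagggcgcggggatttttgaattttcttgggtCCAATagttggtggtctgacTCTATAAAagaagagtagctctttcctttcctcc
H2AJ: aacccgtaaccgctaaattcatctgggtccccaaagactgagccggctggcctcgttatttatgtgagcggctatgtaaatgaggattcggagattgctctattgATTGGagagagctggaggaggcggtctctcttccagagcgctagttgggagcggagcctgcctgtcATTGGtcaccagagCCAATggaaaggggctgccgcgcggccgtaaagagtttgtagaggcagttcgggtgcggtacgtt

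CCAAT or its complement occurred 4 times before H2BC5, 1 time before H1-2, 2 times before H3C2 and 3 times before H2AJ. Overlapping matches to TATANA lay within the last 36 bases before the start of H2BC5, H1-2 and H3C2, H2BC5 had another further away, and none was found in this window of H2AJ. Over 27305 RefSeq promoters of that length, 33.0% held CCAAT and 18.3% TATANA. Of genes with a promoter in the table and both arrays at or above the floor, 32.1% of 324 higher and 33.5% of 615 lower ones held CCAAT, against 34.3% of 12057 genes with a mean signal at or above the floor, and TATANA was found in 13.3%, 13.98% and 11.6%. The AP-1 motif TGANTCA was found in 7.41% of the higher, 4.07% of the lower and 4.62% of those 12057 genes, and the NF-kB motif in 10.5%, 14.5% and 11.6%. These are matches of letters and not binding sites, and no test was made.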

How the data were processed

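The authors deposited 1 linear intensity per probe set and array, made with MAS5 per the submitters' processing notes. Version and scaling target of MAS5 are not given in the sources. It subtracts a mismatch-based background, so weak signals scatter widely. The number of arrays, 1 per line, limits the precision.

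Everything else was computed here with Python 3.11.15, numpy 2.4.6 and pandas 2.3.3. Of the probe sets, 62 controls, 1801 with several symbols and 11721 not named in the platform annotation were left out. Symbols of 41037 of the 41091 matched RefSeq by gene identifier, and 0 needed an update. Named genes were the 15 highest and 15 lowest with at least 2 agreeing probe sets and a mean signal at or above the 60th percentile, up to 10 per direction below the floor on 1 array, up to 10 per direction above the 95th percentile, list members past 2-fold with at most 4 others, and always TIMP1, TIMP2, TIMP3, RECK, MMP2, MMP9 and MMP14. Genes named in runs of neighbours and markers were chosen after their values were seen, and only some of the genes these rules took are described. The members and lists were chosen with earlier results of these data known. Counts of a list include every member that has a probe set, and medians leave out members whose mean signal was below the floor. Spread is 1.4826 times the median absolute deviation. Calls were tested on simulated data. Alternatives were other scalings, floors, an added constant of 50, averaged probe sets and the omission of probe sets that can match several transcripts.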

Additional observations from a re-analysis of the deposited data

How the results depend on the processing

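With 1 array per line no difference can be set against replicate spread, and depth here means signal over background. The counts of higher and lower genes were 829 and 1379. They became 1754 and 2523 for a floor at the 20th percentile, 343 and 539 at the 60th, 112 and 173 at the 80th, 157 and 154 with 50 added to each signal, and 531 and 789 with probe sets averaged. They were 1117 and 932 after median centring, 1137 and 971 after quantile normalisation, which moves the median of all genes by 0.17, and 676 and 1192 without shared probe sets. The 343 and 539 genes left at the 60th percentile floor were all among the 829 and 1379. A higher floor can only shrink a ratio, so this overlap was fixed in advance and tells nothing about the genes. Of 21 lists with a relative median of at least 0.25 in size, 17 kept their sign in all 8 alternatives. The FGF list came to 0.39 at the 80th percentile floor and 0.0900 without shared probe sets. Hepatocyte markers came to 0.36 and 0.56 for floors at the 20th and 60th percentile, 0.29 with averaged probe sets and 0.56 without shared ones. Protocadherins came to -0.023 at the 60th percentile, and skeletal muscle markers to 0.10 and 0.13 at the 20th and 80th. Of 170 named genes past 2-fold, 167 never changed sign. Other floors and an added constant cannot turn the sign of a probe set's ratio, and the scalings moved ratios too little for it. Ratios that came to 0, and genes without a value, counted as unchanged. The count thus rests on averaging and on leaving out shared probe sets. ACTA2 came to a log2 ratio of -0.087 with averaged probe sets, CLDN11 to 0.085 and SULT1A1 to -1.23 without shared ones. No paired analysis was possible because each line has 1 array.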
